A study of Mus musculus with 6 samples.

Results

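Transcript levels of 10 transcription factor genes were examined in endothelial cells (EC), the cells that line blood vessels, sorted from lungs of C57BL/6N mice. The genes were 5 of the ETS family (Erg, Fli1, Ets1, Ets2 and Elk3), the SoxF genes Sox7 and Sox18, and Tal1, Gata2 and Lmo2. They were chosen by their symbols, and all 10 were among the 12623 genes of the table, with 14 of its 17241 transcript rows. The study compared 3 infant libraries with 3 young adult libraries, described as independent biological replicates, to find what changes as lung EC come to rest. According to the methods of the study, infant mice were 8 to 10 days old and young adult mice 8 to 12 weeks old, with no treatment or engineered allele named, and the sorted cells were alive, carried CD31 and CD34 and lacked PTPRC, LYVE1, LY76 and PDPN. The sources used here do not say how many mice went into a library. Values of single libraries are given below in the order of replicates 1, 2 and 3.

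ETS factors bind DNA at a short GGAA core through a conserved domain, and known EC enhancers carry such sites. ERG and FLI1 are close relatives that keep EC differentiated and the junctions between them intact. SOX7 and SOX18, with SOX17, form the SoxF group, which acts with ETS and Notch signals in arteries, veins and lymphatic vessels. TAL1, GATA2 and LMO2 work as one complex in blood stem cells and in the embryonic endothelium, where LMO2 is the bridge that binds no DNA itself.

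Between infant and young adult EC, Gata2 was higher by a ratio of mean RPKM of 1.74 and was the only 1 of the 10 called, while Ets1 and Lmo2 were lower, to 0.644 and 0.655 of the infant level, where the adjusted p was under 0.05 and the fold threshold was not met. Erg, the factor most often used to mark EC nuclei, measured 13.9 ± 1.74 RPKM in the infant group against 13.7 ± 1.87 RPKM in the young adult group (SD, n = 3 each). RPKM are reads per kilobase of transcript, scaled to the mapped reads of a library, so that levels of different genes can be set beside each other. Calls needed both an adjusted p under 0.05 and a log2 fold change beyond 0.81 in either direction, the fold threshold of the study (limma on log2(RPKM + 1), adjusted over 12458 genes). Of all genes tested 11.4% were called, 3.33% higher and 8.1% lower, so that 1 call among 10 genes is close to the background. With an adjusted p under 0.05 at any fold there were 3 of 10 (1 higher and 2 lower), against 25.5% of all genes (9.27% higher and 16.2% lower). Without infant replicate 2 the call was again Gata2 alone, and 6 of 10 (Ets1, Ets2, Elk3, Sox7, Gata2 and Lmo2) had an adjusted p under 0.05, against 15.1% of all genes called and 34.6% under 0.05 in that fit. In each of the other 5 fits that left out 1 library 0 of the 10 were called, against 6.81% to 9.87% of all genes. In these fits 1 to 3 of the 10 had an adjusted p under 0.05, against 9.44% to 15.3% of all genes.

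Libraries of both age groups contained transcripts of other cell types, and infant replicate 2 stood apart from the other infant libraries. Across genes its correlation with infant replicates 1 and 3 was 0.963 and 0.964, against 0.963 with young adult replicate 3. The geometric mean of 16 endothelial markers was 242, 342 and 224 RPKM across the infant libraries against 377, 407 and 401 RPKM across the young adult ones. Endothelial transcripts were abundant at both ages. Cdh5, the gene of VE-cadherin, measured 213.8 to 310.1 RPKM in infant and 276.4 to 316.9 RPKM in young adult EC. Pecam1, the gene of CD31, for which the cells were sorted, measured 309.8 to 512.6 and 573.7 to 657.8 RPKM. Transcripts of antigens that the sort excluded were present. Lyve1 measured 68.6, 171.4 and 82.7 RPKM across the infant libraries against 396.4, 307.9 and 252.9 RPKM across the young adult ones (called higher, limma adjusted p 0.0132). Ptprc measured 4.2, 3.0 and 7.0 RPKM against 0.2, 1.0 and 1.8 RPKM (called lower, limma adjusted p 0.0182). Fibroblast markers summed to 1291, 336 and 909 RPKM in the infant and to at most 24 RPKM in the young adult libraries, and globin genes made up 3.41% to 23.5% of infant and at most 0.487% of young adult RPKM. Epithelial markers, mostly Sftpc and Scgb1a1, were high at both ages. They summed to 6481, 11320 and 8455 RPKM across the infant libraries against 1806, 4794 and 8333 RPKM across the young adult ones. The sums of the 16 endothelial markers were 5353, 7645 and 5000 RPKM against 8358, 8794 and 8864 RPKM. The epithelial sum was thus the larger in each infant library and the smaller in each young adult library. The Y-linked gene Ddx3y measured 16.5 to 21.9 RPKM in the 3 infant libraries and was listed at 0 in the 3 young adult libraries, although the methods of the study name female mice. The X-linked gene Xist was present in all libraries, at 8.2, 8.7 and 7.6 RPKM across the infant libraries against 15.6, 12.5 and 13.4 RPKM across the young adult ones. Each infant library thus held both Xist and Ddx3y, and whether the infant libraries pooled both sexes was not tested. Age and the sex of the animals can therefore not be told apart in these groups. In such bulk libraries a smaller share of EC and less transcript in each EC cannot be told apart either.

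**Figure D1:**
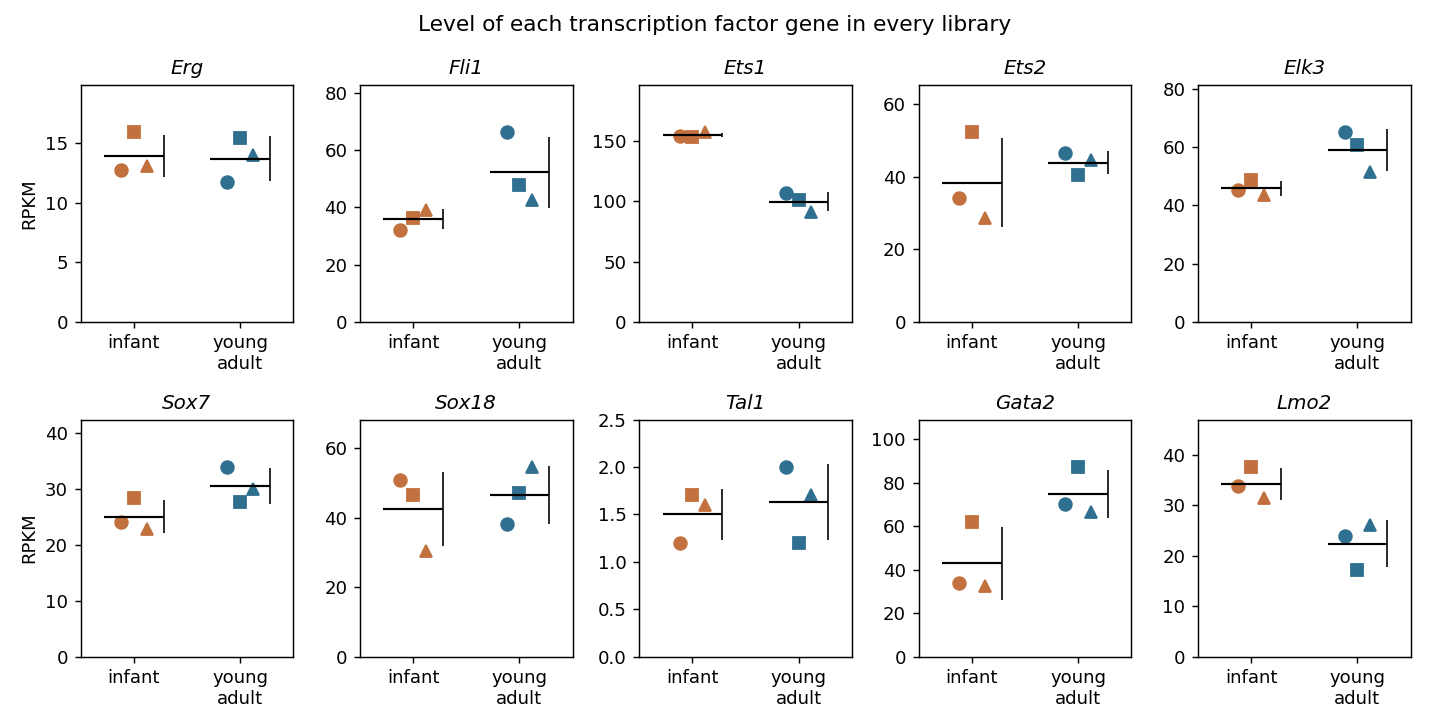
RPKM of each gene in the 3 infant (orange) and 3 young adult (blue) libraries, on linear axes that start at 0 and differ between genes. Circles, squares and triangles are replicates 1, 2 and 3, the horizontal line is the mean and the vertical line 1 SD to either side. The groups do not overlap for Ets1 and Lmo2, which are lower in young adult EC, nor for Fli1, Elk3 and Gata2, which are higher in RPKM (after scaling to endothelial markers Fli1 and Elk3 turn in sign).

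Among the 5 ETS genes, Ets1 was the most abundant, and its log2 fold change had the smallest standard error of the 10. ETS1, the founding member of the family, takes part in vessel growth and is also abundant in lymphocytes. It measured 154.0, 153.5 and 157.1 RPKM across the infant libraries against 106.6, 101.4 and 91.2 RPKM across the young adult ones. All infant libraries lay close together, infant replicate 2 included, and each was well above every young adult library. The log2 fold change was -0.63 ± 0.11 (SE) at a limma adjusted p of 0.00776, with a 95% interval from -0.88 to -0.38. The change did not reach the fold threshold, so Ets1 was not called, but its adjusted p stayed under 0.05 in all 6 fits that each left out 1 library, between 0.00356 and 0.0419. No other of the 10 genes did so in all 6. Of 13 leukocyte markers tested 5 were called lower (Ptprc among them) and 0 higher. The sums of the markers, which are mostly the myeloid gene Lyz2, were 315 to 512 RPKM in infant and 139 to 548 RPKM in young adult libraries. The B cell genes Cd79a and Ms4a1 measured 2.8 to 14.3 RPKM in infant and 0.4 to 2.7 RPKM in young adult libraries, and both were highest in infant replicate 3, where Ets1 was 157.1 RPKM. The means of the natural killer cell genes Nkg7 and Ncr1 were not lower, going from 0.867 to 1.0 RPKM and from 0.133 to 0.433 RPKM. Both genes were near the floor. Nkg7 measured 0.3, 0.4 and 1.9 RPKM across the infant libraries against 0.4, 0.4 and 2.2 RPKM across the young adult ones. Ncr1 measured 0.0, 0.1 and 0.3 RPKM against 0.0, 0.3 and 1.0 RPKM. The T cell genes Cd3e, Cd3g, Cd4 and Cd8a were not among the deposited genes. The part of leukocytes in the level of Ets1 was not tested.

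Fli1 and Elk3 had higher RPKM in young adult EC without passing the test, and not relative to endothelial markers. Fli1, whose product regulates many EC and megakaryocyte genes, measured 32.1, 36.2 and 39.2 RPKM across the infant libraries against 66.2, 47.7 and 42.7 RPKM across the young adult ones. The groups were 3.5 RPKM apart, and young adult replicate 1 stood above the other young adult libraries. Its log2 fold change was 0.51 ± 0.17 (SE, limma adjusted p 0.0608) and was 0.33 (adjusted p 0.137) without young adult replicate 1. Elk3, which encodes a ternary complex factor that represses transcription until it is phosphorylated by MAP kinases, measured 45.3, 48.8 and 43.7 RPKM across the infant libraries against 65.1, 60.7 and 51.3 RPKM across the young adult ones. Again the groups did not overlap, and the log2 fold change was 0.35 ± 0.12 (limma adjusted p 0.0624, 95% interval 0.08 to 0.62). Leaving out infant replicate 2 or young adult replicate 3 brought its adjusted p under 0.05 (0.0414 and 0.0469).

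Erg and Ets2 overlapped between the groups. Erg measured 12.7, 15.9 and 13.1 RPKM across the infant libraries against 11.7, 15.4 and 14.0 RPKM across the young adult ones, a log2 fold change of -0.02 ± 0.13 with a 95% interval from -0.32 to 0.28 (limma adjusted p 0.92). The sign of this small value turned with equal RPKM totals (0.061), median ratio scaling (0.042) and quantile normalization (0.0056), whereas after scaling to endothelial markers it was -0.56 ± 0.19 (adjusted p 0.0271). Under that scaling the median of all genes was -0.55, and 53.8% of all genes had a limma adjusted p under 0.05. Erg was thus close to the median gene. Ets2, which encodes a target of RAS and MAP kinase signalling, measured 34.1, 52.2 and 28.7 RPKM across the infant libraries against 46.5, 40.4 and 44.6 RPKM across the young adult ones. Infant replicate 2 was above all young adult libraries and the other infant libraries were below them. The log2 fold change of Ets2 was 0.23 ± 0.20 (limma adjusted p 0.429), and without infant replicate 2 it was 0.47 at an adjusted p of 0.0173.

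The make-up of the ETS transcripts does not depend on the scaling of a library. Ets1 held 55.4%, 50.1% and 55.7% of the summed RPKM of the 5 genes across the infant libraries against 36%, 38.2% and 37.4% across the young adult ones. The share of Ets1 was thus lower in each young adult library than in each infant library. Elk3 held 15.9% ± 0.388 of the infant and 22% ± 0.906 of the young adult sum, and Fli1 12.4% ± 1.3 and 19.3% ± 2.68 (SD, n = 3 each), both without overlap. Since the shares of a library add up to the whole, a lower share of Ets1 by itself raises the others. The higher shares of Elk3 and Fli1 are therefore not separate from it, and shares without Ets1 were not compared. The shares of Ets2 (10.2% to 17% and 15.2% to 18.3%) and Erg (4.57% to 5.19% and 3.95% to 5.8%) overlapped. The sum itself was 289 ± 15.5 RPKM in infant and 269 ± 26.3 RPKM in young adult EC. Together the 5 genes held 77% to 82.8% of the RPKM of the 18 ETS genes in the table in infant libraries and 80.8% to 84.3% in young adult libraries.

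**Figure D2:**
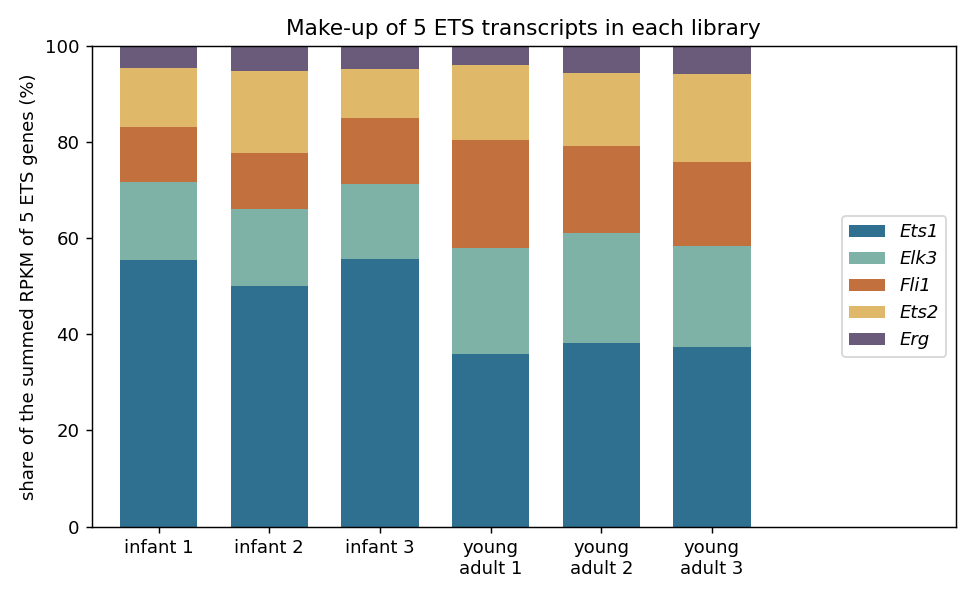
Share (%) of each of 5 ETS genes in their summed RPKM, 1 stacked bar per library. Ets1 takes 50.1% to 55.7% of the bar in the 3 infant libraries and 36% to 38.2% in the 3 young adult libraries, where Elk3 and Fli1 take more. The shares of a bar add up to the whole, so a smaller share of Ets1 leaves larger shares to the others.

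These genes lie as pairs in the mouse genome. In the RefSeq annotation of GRCm38.p6, whose coordinates are those of mm10, Fli1 (chr9:32422204-32543432, minus strand) and Ets1 (chr9:32636241-32757820, plus strand) start 92.8 kb apart, facing away from each other, with 0 protein-coding genes wholly between them. Erg (chr16:95359169-95586600, minus strand) and Ets2 (chr16:95702407-95721049, plus strand) have the same arrangement with a gap of 116 kb. Elk3 lies alone (chr10:93247415-93311159, minus strand). These are spans of whole genes, introns included. The neighbours Fli1 and Ets1 differed in direction between the age groups, with Fli1 higher and Ets1 lower in RPKM in every young adult library than in every infant library, although Fli1 was at -0.054 after scaling to endothelial markers.

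Within-library ratios were compared for 3 pairs of related genes. The log2 ratio of Ets1 to Ets2 was 2.18, 1.56 and 2.45 across the infant libraries against 1.2, 1.33 and 1.03 across the young adult ones, and that of Erg to Fli1 was -1.34, -1.19 and -1.58 against -2.5, -1.63 and -1.61. Neither pair overlapped between the groups. The differences were -0.88 for Ets1 to Ets2 and -0.55 for Erg to Fli1, each at a two-sided exact permutation p of 0.1, the smallest that 3 against 3 libraries allow, so the test could not pass 0.05. Adjusted over the 3 ratios both were at 0.15. Without young adult replicate 1 the difference of Erg to Fli1 was -0.25. The log2 ratio of Sox18 to Sox7 was 0.74 ± 0.33 among infant and 0.60 ± 0.38 among young adult libraries (SD, n = 3 each, difference -0.14, exact permutation p 0.7, adjusted 0.7).

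Neither SoxF member passed the test. Sox7, which in the embryo takes part in forming arteries and large vessels, measured 24.0, 28.3 and 22.8 RPKM across the infant libraries against 33.9, 27.6 and 29.9 RPKM across the young adult ones. The groups touched only through infant replicate 2, which lay above young adult replicate 2. The log2 fold change of Sox7 was 0.27 ± 0.12 (limma adjusted p 0.129, 95% interval -0.0045 to 0.55), and without infant replicate 2 it was 0.36 at an adjusted p of 0.0425. Sox18, which is needed for lymphatic EC to form and is mutated in the ragged mouse, measured 50.8, 46.5 and 30.4 RPKM across the infant libraries against 38.1, 47.1 and 54.6 RPKM across the young adult ones. Libraries of both ages were spread over the same range, and the difference was 0.15 ± 0.21 (limma adjusted p 0.639). The value changed sign without infant replicate 3 (-0.074). The third SoxF gene, Sox17, a marker of arterial EC, was lower in level than both, at 5.9, 4.5 and 3.7 RPKM across the infant libraries against 4.8, 3.7 and 3.4 RPKM across the young adult ones, and made up 3.87% to 7.31% of the SoxF total in all libraries. Sox7 lies at chr14:63943706-63950732 (plus strand) and Sox18 at chr2:181669837-181671640 (minus strand).

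Gata2 was the only call. GATA2 is a zinc finger factor that adult EC express, and it is needed for blood stem cells and lymphatic valves. It measured 34.0, 62.1 and 32.6 RPKM across the infant libraries against 70.1, 87.3 and 66.8 RPKM across the young adult ones. Infant replicates 1 and 3 had about the same level, whereas infant replicate 2 lay 4.7 RPKM under the lowest young adult library. The log2 fold change was 0.84 ± 0.24 (SE) with a limma adjusted p of 0.0407 and a 95% interval from 0.28 to 1.40. The log2 of the ratio of mean RPKM was 0.80, just under the threshold of 0.81, so the call rests on the fitted value on the log2(RPKM + 1) scale. It also depended on single libraries. The call did not hold without infant replicate 1 (0.71, adjusted p 0.131), infant replicate 3 (0.68, 0.117), young adult replicate 1 (0.88, 0.1), young adult replicate 2 (0.72, 0.142) or young adult replicate 3 (0.92, 0.0771). It held without infant replicate 2, where the log2 fold change was 1.13 and the limma adjusted p 0.000505. It was also lost with a pseudocount of 5 (0.78), under quantile normalization (0.76), without the globin genes in the totals (0.74) and after scaling to endothelial markers (0.27, adjusted p 0.221). Infant replicate 2, with the highest Gata2 among infant libraries, also had the highest endothelial markers among them. Set against the geometric mean of the endothelial markers, Gata2 was at 14%, 18.2% and 14.6% across the infant libraries against 18.6%, 21.4% and 16.7% across the young adult ones, and the groups then overlapped. The part of EC content in the level of Gata2 was not tested further.

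Mast cells and basophils also express GATA2. Of 9 of their markers, 3 were in the table. Hdc measured 4.2 to 7.1 RPKM in infant and 3.5 to 5.6 RPKM in young adult libraries, and Mcpt8 reached 2.5 RPKM in infant replicate 3 and was listed at 0 in young adult libraries. Kit, which lung capillary EC express as well, rose from 94.2 ± 14.3 to 207 ± 46.4 RPKM (limma adjusted p 0.00864), and its log2 fold change after scaling to endothelial markers was 0.54 (adjusted p 0.0606). Megakaryocytes share Gata2, Tal1, Fli1 and Erg with EC. Of 4 of their markers tested 0 were called, with sums of 4.7 to 16.3 RPKM in infant and 7.4 to 14.2 RPKM in young adult libraries, with Itga2b at 1.8, 3.3 and 2.5 RPKM across the infant libraries against 1.1, 1.7 and 2.6 RPKM across the young adult ones.

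Gata2 (chr6:88193891-88207032, plus strand) has 2 starts in the promoter table of RefSeq on GRCm38.p6, and its single transcript row (NM_008090) does not tell them apart. Both are shown, from 250 bases before to 50 bases after the start, because this was the gene that was called. The window of Elk3 is shown because its groups did not overlap, and the most downstream of 3 Erg windows because it alone held the SOX motif. Capitals mark the ETS core GGAA, the GATA motif AGATAA and the SOX motif ACAAT on either strand.
Gata2, first start (plus strand, chr6:88193641-88193940): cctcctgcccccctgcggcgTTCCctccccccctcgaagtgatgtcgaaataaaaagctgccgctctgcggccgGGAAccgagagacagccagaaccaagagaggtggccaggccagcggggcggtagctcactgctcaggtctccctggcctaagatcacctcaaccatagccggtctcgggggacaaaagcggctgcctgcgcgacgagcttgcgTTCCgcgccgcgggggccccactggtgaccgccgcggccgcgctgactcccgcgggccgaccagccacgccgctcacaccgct
Gata2, second start (plus strand, chr6:88198414-88198713): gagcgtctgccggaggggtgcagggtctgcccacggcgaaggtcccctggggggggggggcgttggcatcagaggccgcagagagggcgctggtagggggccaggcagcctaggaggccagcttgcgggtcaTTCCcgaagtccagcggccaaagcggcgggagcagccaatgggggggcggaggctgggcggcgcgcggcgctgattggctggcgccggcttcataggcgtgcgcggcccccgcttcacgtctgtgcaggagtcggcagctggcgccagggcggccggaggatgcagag
Elk3 (minus strand, chr10:93311110-93311409): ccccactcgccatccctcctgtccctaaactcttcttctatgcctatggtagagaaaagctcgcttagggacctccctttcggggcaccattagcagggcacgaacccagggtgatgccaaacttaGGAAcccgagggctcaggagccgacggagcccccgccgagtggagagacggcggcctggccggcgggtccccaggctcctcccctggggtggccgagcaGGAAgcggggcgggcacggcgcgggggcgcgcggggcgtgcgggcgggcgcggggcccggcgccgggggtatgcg
Erg, most downstream start (minus strand, chr16:95459299-95459598): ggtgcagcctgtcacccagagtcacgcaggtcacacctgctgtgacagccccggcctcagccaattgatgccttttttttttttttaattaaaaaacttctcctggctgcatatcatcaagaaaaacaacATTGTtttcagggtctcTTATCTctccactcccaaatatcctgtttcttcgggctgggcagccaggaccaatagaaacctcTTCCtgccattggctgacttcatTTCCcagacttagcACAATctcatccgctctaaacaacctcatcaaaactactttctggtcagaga

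The first Gata2 window holds 3 ETS cores and the second 1, and neither holds the GATA or the SOX motif. The Erg window is the one of 9 windows of 5 of the 10 genes (Tal1, Gata2, Elk3, Erg and Ets2) that holds the SOX motif, in 2 copies, beside 1 GATA motif and 2 ETS cores. The only other GATA motif is in the first Tal1 window. The ETS core is in all 9 windows, but as 4 letters it is also in 96% of all 32851 promoter windows of this length. AGATAA is in 11.2% of them and ACAAT in 31%. A longer ETS motif, CCGGAAG, is in 8.86% of all windows and in 0 of the 9. These matches describe letters in a window, and no binding was measured here.

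Lmo2 was lower in young adult EC. Its product links TAL1 or GATA factors to the adaptor LDB1. It measured 33.8, 37.6 and 31.4 RPKM across the infant libraries against 24.0, 17.2 and 26.1 RPKM across the young adult ones (chr2:103957903-103981878, plus strand). Every infant library was above every young adult library, by at least 5.3 RPKM. The log2 fold change was -0.61 ± 0.16 (limma adjusted p 0.0296) and did not reach the fold threshold. The adjusted p exceeded 0.05 without infant replicate 1 (0.0827), infant replicate 3 (0.0578), young adult replicate 1 (0.0695) and young adult replicate 2 (0.0759, log2 fold change -0.43), but not without infant replicate 2 (0.0432) or young adult replicate 3 (0.0362). Erythroid cells also express Lmo2, and 7 of 8 erythroid markers tested were called lower, with sums of 9657 to 79870 RPKM in infant and 823 to 1351 RPKM in young adult libraries. Among infant libraries replicate 2 had the lowest erythroid sum, the highest endothelial markers and the highest Lmo2. The part of erythroid transcripts or of EC content in the level of Lmo2 was not tested. The 4 transcript rows of Lmo2 and the 2 rows of Ets1 held the same pattern at levels that differed by a nearly constant factor, 1.01 to 1.09 and 1.04 to 1.05, so the rows do not tell isoforms apart.

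Tal1 was close to the filter of 1 RPKM. This bHLH factor, known for the start of the blood and EC lineages in the embryo, measured 1.2, 1.7 and 1.6 RPKM across the infant libraries against 2.0, 1.2 and 1.7 RPKM across the young adult ones (chr4:115056426-115071755, plus strand). Its groups overlapped, with a log2 fold change of 0.07 ± 0.16 (limma adjusted p 0.777), and values this low move in rounding steps of 0.1 RPKM. Of the complex of 3, Lmo2 was lower in RPKM without meeting the fold threshold, and Tal1 was at low level in both age groups. Gata2 was higher in RPKM, with a call kept in 1 of 6 fits without 1 library and lost after scaling to endothelial markers.

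The order of levels in infant EC was Ets1, Elk3, Gata2, Sox18, Ets2, Fli1, Lmo2, Sox7, Erg and Tal1. From Elk3 to Lmo2 each gene overlapped its neighbour in this order, whereas Ets1 lay above Elk3, Lmo2 above Sox7, Sox7 above Erg and Erg above Tal1 in all 3 libraries. The young adult order was Ets1, Gata2, Elk3, Fli1, Sox18, Ets2, Sox7, Lmo2, Erg and Tal1, where neighbours from Elk3 to Ets2 overlapped and the others did not. Ets1 was above 98.2% of all genes in infant and 96.5% in young adult EC, Gata2 above 90.4% and 94.9%, and Tal1 above 14.7% and 22.7%. In 5 of the 10 genes the groups did not overlap, 3 higher and 2 lower in RPKM, against 43.4% of all genes tested (16.4% higher and 27.1% lower). The median log2 fold change of the 10 was 0.19 and that of all genes -0.07.

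**Figure D3:**
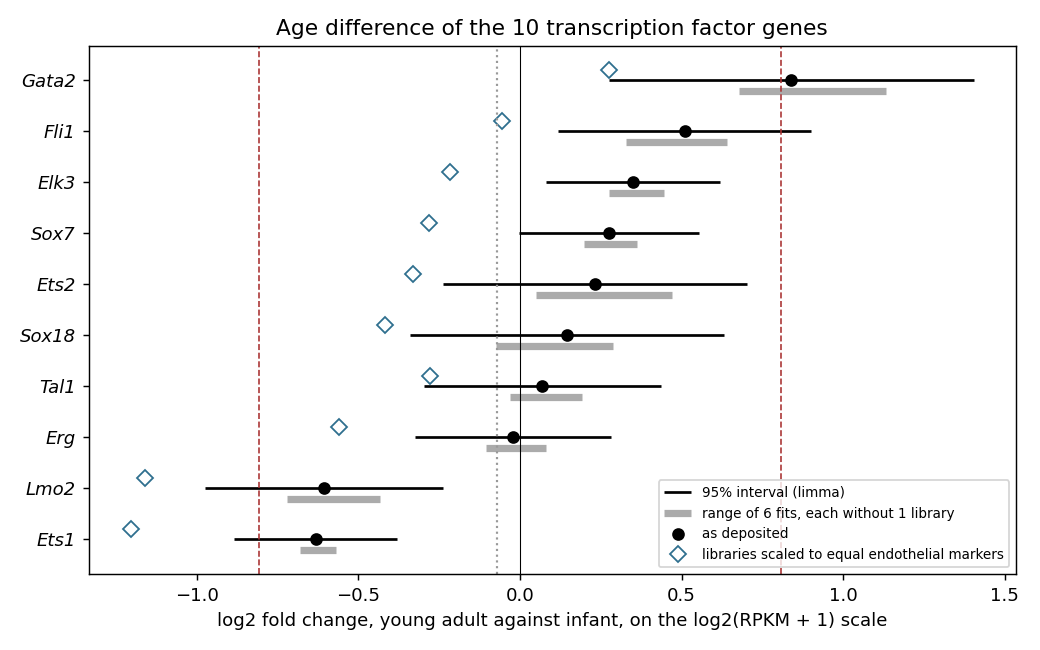
Log2 fold change of each gene between young adult and infant EC on the log2(RPKM + 1) scale. Black points and lines are the estimate and its 95% interval with all 6 libraries, grey bars the range over 6 fits that each left out 1 library, and open diamonds the value after scaling libraries to equal endothelial markers. Red dashed lines mark the fold threshold (0.81 in either direction) and the dotted line the median of all genes (-0.07). Among the black points Gata2 alone lies past a dashed line, and every diamond lies to the left of its point.

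Because endothelial markers were higher in young adult libraries, the genes were also set against these markers. This scaling lowers the median of all genes by 0.48, so values against the markers and against the median of all genes differ. Against the markers, Ets1 had a log2 fold change of -1.21 and Lmo2 of -1.16 (limma adjusted p 0.00125 and 0.00182), and both passed the fold threshold, 2 of 10 called lower against 23.1% of all genes under this scaling. Erg had -0.56 (adjusted p 0.0271), Fli1 -0.054 and Elk3 -0.22 (adjusted p 0.841 and 0.344). An adjusted p under 0.05 was reached by 53.8% of all genes under this scaling. Relative to the median of all genes under the same scaling, the log2 fold change was -0.65 for Ets1, -0.61 for Lmo2, -0.01 for Erg, 0.50 for Fli1 and 0.82 for Gata2. The direction was the same by both measures for Ets1, Lmo2 and Gata2. Erg, at -0.01 relative to the median, had no clear direction by that measure. For the other 6 genes the direction differed.

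Genes related to the 10 factors were counted from lists. Of 22 other ETS genes, 13 were in the table, and 3 were called lower and 0 higher, a share of 23.1% against the background of 11.4% (8.1% lower). Their median log2 fold change was -0.28. Etv1, at 18.3, 1.4 and 16.9 RPKM across the infant libraries, fell from 12.2 ± 9.38 to 0.633 ± 0.208 RPKM (adjusted p 0.0385) and Etv5 from 7.67 ± 1.74 to 3.93 ± 1.74 RPKM (adjusted p 0.0445), both PEA3 group genes that FGF signals induce. Elf3, an epithelial ETS gene, fell from 4.1 ± 1.35 to 1.17 ± 0.907 RPKM (limma adjusted p 0.0232). Their calls were kept in 1, 2 and 3 of the 6 fits without 1 library. Etv1 reached the filter of 1 RPKM in infant libraries alone, so a higher call was hardly open to it. The share called is therefore not a result about the family. The fibroblast marker Pdgfra likewise was low in infant replicate 2, at 87.2, 2.6 and 66.8 RPKM across the infant libraries, and the part of fibroblasts in the level of Etv1 was not tested. The most abundant of the list were Elf1, at 12.1 ± 1.96 and 16.7 ± 0.7 RPKM (adjusted p 0.0368, not called, and -0.10 on the log2 scale after scaling to endothelial markers), Elf2 at 10.6 ± 0.551 and 10.1 ± 0.153 RPKM, and Gabpa at 8.4 ± 1.31 and 6.03 ± 0.416 RPKM (limma adjusted p 0.0476, under the fold threshold). In infant EC all 3 means were below that of Erg (13.9 RPKM), and in young adult EC that of Elf1 was above it (13.7 RPKM).

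Of 17 other SOX genes 6 were in the table, with 3 called lower and 0 higher, a share of 50% against 11.4% of all genes (8.1% lower), and a median of -0.52. Sox4 fell from 10.2 ± 4.86 to 1.93 ± 0.404 RPKM (limma adjusted p 0.0082), a call kept in 6 of 6 fits without 1 library. Sox9 and Sox5, genes of epithelium, cartilage and mesenchyme, fell from 1.73 and 1.27 RPKM to 0.467 and 0.233 RPKM, calls kept in 3 and 1 of 6 such fits. Both passed the filter of 1 RPKM through infant libraries alone, which left little room for a higher call. The share called is therefore not a result about the family. Sox13 rose from 10.4 ± 1.19 to 15 ± 0.721 RPKM (limma adjusted p 0.0153, under the fold threshold, and -0.037 on the log2 scale after scaling to endothelial markers), and Sox11 measured 22.8 ± 2.38 and 22.6 ± 9.55 RPKM. The 3 genes called lower were lower together with the fibroblast and epithelial markers, of which 9 of 10 and 4 of 9 tested were called lower. The part of these cells was not tested.

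Of 22 other GATA genes and partners of the TAL1 complex 15 were in the table, with 1 called higher and 3 called lower, a share of 26.7% against 11.4% of all genes (3.33% higher and 8.1% lower), and a median of -0.38. Gata3 rose from 3.93 ± 0.71 to 9.3 ± 1.13 RPKM, which on the log2 scale was 1.07 ± 0.14 (limma adjusted p 0.00284). The call was kept in 6 of 6 fits without 1 library and lost after scaling to endothelial markers (0.57, adjusted p 0.0424). It moved in the direction of Gata2 with a smaller standard error, while Gata6 measured 3.0 to 4.3 RPKM in infant and 1.2 to 2.3 RPKM in young adult libraries (adjusted p 0.0197, -0.77, under the fold threshold and named after its values were seen). Gata5, Ssbp2 and Runx1, the last a factor of blood formation, fell from 1.13, 4.57 and 1.13 RPKM to 0.0333, 1.87 and 0.133 RPKM, calls kept in 1, 2 and 1 of 6 fits without 1 library. All 3 were lowest in infant replicate 2 among the infant libraries (0.3, 3.0 and 0.5 RPKM), as the fibroblast sum was, and the part of other cells was not tested. Gata5 and Runx1 passed the filter of 1 RPKM through infant libraries alone, so a higher call was hardly open to them. This limits what the share called says about the list. Both leading partners had nearly equal means. Ldb2, an adaptor that binds LMO proteins, measured 73.9 ± 10 and 73.7 ± 9.46 RPKM and Tcf4, an E protein that pairs with TAL1, 56.9 ± 5.21 and 58.8 ± 3.02 RPKM, and the sign of either small difference changed with the scaling. Ssbp3 measured 15 ± 1.8 and 12.3 ± 0.173 RPKM.

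Genes known as endothelial targets of these factors were mostly higher in RPKM in young adult EC, with 22 of 25 above 0, 5 called higher (20% of the list, against 3.33% of all genes) and 0 lower, and a median of 0.50. This list shares 11 genes with the endothelial markers described above, and after scaling to those markers 12 of 25 were above 0, 3 were called higher (Vwf, Vcam1 and Edn1), 1 was called lower (Flt4) and the median was -0.033. Under that scaling 156 of 12454 genes were called higher and 23.1% lower. Vwf, the gene of von Willebrand factor, rose from 30.5 ± 2.87 to 129.7 ± 26.7 RPKM (limma adjusted p 0.000642) and Vcam1, an adhesion receptor, from 3.5 ± 0.916 to 18.3 ± 3.54 RPKM (adjusted p 0.000997). Edn1, the gene of endothelin 1 and a target of GATA2, rose from 15.4 ± 2.82 to 46.2 ± 7.75 RPKM (limma adjusted p 0.00148). Tek, which encodes the angiopoietin receptor, rose from 101.3 ± 17.8 to 245.4 ± 59.4 RPKM (adjusted p 0.00712) and Clec14a from 110.3 ± 41.9 to 243.4 ± 37.5 RPKM (adjusted p 0.0156). The call was kept in 6 of 6 fits without 1 library for all but Clec14a (3 of 6). After scaling to endothelial markers the calls of Tek (log2 fold change 0.68) and Clec14a (0.61) were lost. The 3 most abundant targets did not pass, with Egfl7 at 1236 ± 282 and 1893 ± 73.6 RPKM (adjusted p 0.0753), Icam2 at 606.3 ± 173.9 and 932.3 ± 141.6 RPKM (adjusted p 0.0825) and Ecscr at 672 ± 157 and 806.8 ± 93.7 RPKM (limma adjusted p 0.355).

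Factors of other families in EC gave 2 calls among 25 tested, 8% against 11.4% of all genes, with a median of 0.09. Prdm1 fell from 19.3 ± 1.6 to 6.8 ± 1.57 RPKM (limma adjusted p 0.00184, kept in 6 of 6 fits without 1 library). Nr2f2, the factor of venous identity, which fibroblasts also express, fell from 10.3 ± 5.97 to 2.43 ± 0.839 RPKM (adjusted p 0.0388, kept in 1 of 6), with 3.5 RPKM in infant replicate 2. Id3, the most abundant, measured 542.6 ± 25.9 and 666.9 ± 65.3 RPKM (adjusted p 0.195), Epas1 166.4 ± 43.5 and 226.3 ± 23.6 RPKM (adjusted p 0.115), and Id1 127.4 ± 31.2 and 196.6 ± 16.9 RPKM (limma adjusted p 0.0369, under the fold threshold). Of the 10 ETS, SoxF, TAL1, GATA2 and LMO2 genes, only Ets1 had a mean over 100 RPKM in either age group.

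**Figure D4:**
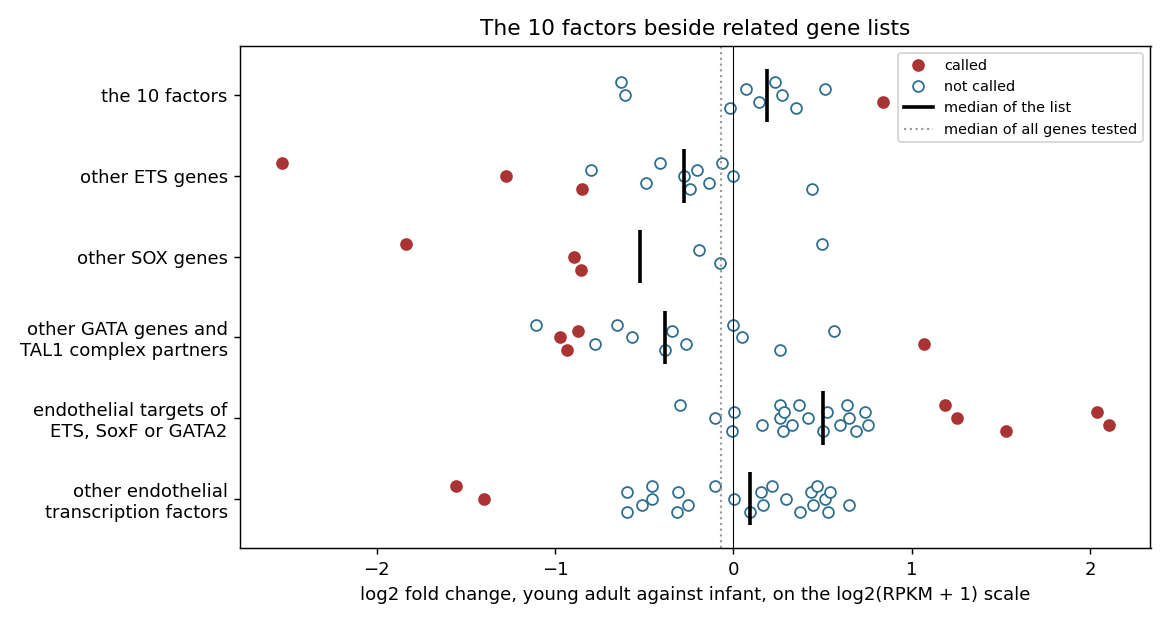
Log2 fold change of every tested gene of 6 lists, young adult against infant, on the log2(RPKM + 1) scale. Filled red points are genes called, open points genes not called, thick lines the median of each list and the dotted line the median of all genes tested (-0.07). The medians are 0.19 for the 10 factors, -0.28, -0.52 and -0.38 for the other ETS, SOX and GATA lists, 0.50 for the endothelial targets and 0.09 for other endothelial factors.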

How the data were processed

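RNA-seq was made from 10 ng of total RNA of each of 6 sorted EC samples, amplified from poly(A) tails (SMARTer Ultra Low kit). Per the labels and methods, the authors aligned paired-end reads to mm10 with STAR (version not given in the sources used here) with up to 10 mismatches and tested RefSeq genes with DESeq2. The deposited RPKM values, rounded to 1 decimal, were given per RefSeq transcript and library, without counts, so depth is unknown and no counting error is given. They summed to between 362970 and 428155 per library. The row with the highest mean was kept per gene (24 rows with dates as symbols were restored by accession).

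Since RPKM are not counts, limma 3.58.1 (R 4.3.3) was fitted to log2(RPKM + 1) with an intensity trend and age as the only term, over the 12458 genes that reached 1 RPKM in any library. The study used this filter and this fold threshold. Fold changes of low genes are understated on this scale. The code was tested on simulated data. Members and lists were chosen with earlier results of these data known. Named genes were the 10 factors, called genes of each list (at most 8), its 3 most abundant genes, and defining cell markers. Ratios were compared by exact permutation. Groups came from library titles. Same-numbered libraries did not deviate together (correlations 0.0282, -0.11 and -0.021), so the numbers were not used as a pairing. Alternatives are given at the end.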

Additional observations from a re-analysis of the deposited data

How the results depend on the processing

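With 3 libraries a group and depth unknown, the side of the threshold for Fli1 and Elk3 changed with the setting. Their adjusted p was under 0.05 with median ratio scaling (0.0481 and 0.0475) and array weights (0.0478 and 0.0246), and that of Fli1 with equal RPKM totals (0.0467, limma). The number of genes called was 1424, and 578 with a pseudocount of 5, 3039 after scaling to endothelial markers, 176 with limma treat, 3178 with no fold threshold and 846 to 1874 in fits without 1 library. Quantile normalization raised the median of all genes by 0.11 and made 45.5% of calls higher, against 29.1%, and scaling to endothelial markers 5.13%. The number of the 10 factors called was 1, against 11.4% of all genes. It was 0 with a pseudocount of 5 (4.64% of all genes called), under quantile normalization (9.29%), without globin genes in the totals (12.3%) and with treat (1.41%). It was 2 (Ets1 and Lmo2) after scaling to endothelial markers (24.4%), 3 with no fold threshold (25.5%), and 0 to 1 in fits without 1 library (6.81% to 15.1%). Several alternatives, among them other filters, other variance estimates, a replicate block, treat and no fold threshold, leave each fold change as it was. They cannot turn a direction, so the following count overstates how stable the values were. Of 230 values of the 10 factors under alternatives, 201 kept direction and side of the threshold, 10 (all Gata2) lost the call, 4 gained it and 15 changed direction.

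Those were Erg with equal RPKM totals (0.061), median ratio scaling (0.042), quantile normalization (0.0056) and array weights (0.054), and over fits without 1 library (-0.10 to 0.080). After scaling to endothelial markers they were Fli1 (-0.054), Ets2 (-0.33), Elk3 (-0.22), Sox7 (-0.28), Sox18 (-0.42) and Tal1 (-0.28). Without 1 library Sox18 ranged from -0.074 to 0.29 and Tal1 from -0.031 to 0.19. Among list genes the endothelial scaling turned Ecscr (-0.29), Elf1 (-0.10), Epas1 (-0.11), Id3 (-0.28), Sox13 (-0.037) and Tcf4 (-0.52). Elf2 turned with equal totals (0.018), Ldb2 with equal totals (0.084), median ratio scaling (0.063) and array weights (0.091), Sox11 with equal totals (0.0085), and Tcf4 with quantile normalization (-0.032) and without globin genes (-0.055). Ldb2 ranged from -0.10 to 0.10 and Sox11 from -0.39 to 0.16 without 1 library. The log2 ratio of Sox18 to Sox7 ranged from -0.30 to 0.082 without 1 library, and the other 2 ratios kept their sign in every alternative. Beyond the constructions named, the cause was not tested.

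With the replicate number as a replicate block, 1371 genes and 1 of the 10 factors (Gata2, limma adjusted p 0.0211) were called, Lmo2 had an adjusted p of 0.0647, and the differences of the 3 ratios were unchanged at -0.55, -0.88 and -0.14 (exact permutation p 0.25, 0.25 and 1). The numbers name libraries only.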
